A study of Homo sapiens with 6 samples.

Results

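Aminoacyl-tRNA synthetases attach each amino acid to its tRNA, the step that fixes the genetic code before the ribosome reads it. The genes were taken from the deposited table by their symbols, which end in ARS, ARS1 or ARS2 after the letter of the amino acid, together with FARSA, FARSB and EPRS1, the fused enzyme for glutamate and proline. This gave 36 of the 35410 listed genes. Of them, 20 give the enzymes of the cytosol and 16, with a 2 at the end of the symbol, give those of the mitochondrion. All 36 passed the filter on low counts, with 43 to 3556 counts in each library. VARS2 was not analysed here.

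The RNA is labelled as coming from SEM, an established human proB cell leukemia line with the KMT2A::AFF1 fusion. The line SEM::EGR3 carries a vector from which doxycycline induces EGR3, a zinc finger transcription factor, and the line SEM::mock carries the empty vector. Both lines were treated with 1 µg/mL doxycycline for 48 h, so that the agent is common to both, and each was sampled as 3 biological replicates. Each construct is represented by 1 cell line, so that line and construct cannot be told apart. RNA was measured by MACE-Seq, which reads polyadenylated transcripts near their 3′ end, so that counts depend little on transcript length.

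In the cytosol, some synthetases are held with the scaffold proteins AIMP1, AIMP2 and EEF1E1 in a large multi-synthetase complex, while others act alone or as dimers. Mitochondria translate their own few transcripts with a separate set of tRNAs and synthetases, which are encoded in the nucleus and imported. GARS1 and KARS1 give both the cytosolic and the mitochondrial enzyme and were counted as cytosolic. Synthetases fall into class I and class II, which differ in the fold of the catalytic domain. Several cytosolic synthetase genes are known targets of ATF4, the transcription factor of the amino acid response.

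Totals of the listed counts ran from 5286115 to 6181388 for SEM::mock libraries and from 7293092 to 15106018 for SEM::EGR3 libraries. EGR3 itself had 8, 10 and 6 counts across SEM::mock and 9768, 4952 and 5557 across SEM::EGR3. The libraries labelled SEM::mock went against their cell type label. Of 11 markers of proB cells and the B lineage, 8 were tested. All 8 were higher in SEM::EGR3, beside 36.5% of all tested genes. Markers with few or no SEM::mock counts passed the filter on low counts only through SEM::EGR3, so that their higher call is no support. The summed level was 2.65 to 5.69 CPM (counts per 1000000 counts of the tested genes after TMM scaling) in SEM::mock against 496 to 524 CPM in SEM::EGR3. In SEM::mock, EBF1 had 0, 0 and 0 counts, PAX5 had 1, 1 and 2 counts, and FLT3 had 1, 0 and 4 counts. DNTT, RAG2 and VPREB1 had at most 8 counts in any library of both lines. All 8 markers of KMT2A fusion leukemia were higher in SEM::EGR3, and they summed to 163 to 178 CPM in SEM::mock and 1133 to 1208 CPM in SEM::EGR3. The same limit of the filter holds for HOXA9, FLT3, PROM1 and CSPG4 among them. The T cell list summed to 58.7 to 63.9 against 12.4 to 14.1 CPM. In it CD3D and CD3E were lower in SEM::EGR3, CD4 and CD2 were higher, and CD8A had 0 counts in all libraries. CD4 and CD2 had 0 or 1 count in each SEM::mock library, and the same limit of the filter holds for their higher call. CD3E passed the filter only through SEM::mock, so that its lower call is no support either. In the myeloid list CD33 and LYZ were lower in SEM::EGR3 and ITGAM was higher, with sums of 279 to 288 against 102 to 107 CPM and MPO, CSF1R and CD14 at 0 or 1 count in each SEM::mock library. Of the erythroid list, HBA1 and HBA2 were higher in SEM::EGR3 while ALAS2 and EPOR were lower, with sums of 1017 to 1117 against 2656 to 2819 CPM and HBB at 2 counts or fewer. The epithelial and fibroblast list summed to 749 to 782 against 541 to 568 CPM, with EPCAM, KRT8 and KRT18 lower in SEM::EGR3, COL1A1, COL1A2 and PDGFRB higher, and CDH1 at 3 counts or fewer. PDGFRB had 0 or 1 count in each SEM::mock library, and the limit of the filter holds for its call too. The part of these differences in the synthetase results was not tested. The name SEM::mock is used below for the libraries so labelled. Every difference given here lies between these 2 sets of libraries, in which the induced EGR3 and the differing cell markers cannot be told apart. In bulk RNA, fewer cells of a type and less RNA per cell cannot be told apart either.

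Most cytosolic synthetase genes were lower in SEM::EGR3, and the mitochondrial genes were split. Of the 20 cytosolic genes, 14 fell, 2 rose and 4 did not pass the test. Of the 16 mitochondrial genes, 7 rose, 5 fell and 4 did not pass. Calls were made with edgeR's quasi-likelihood method at 0.05, after adjusting p-values over 15465 tested genes by Benjamini-Hochberg. Of all those genes, 36.5% were higher, 32% were lower and 68.5% passed in either direction. Of the 36 synthetase genes, 25% were higher, 52.8% were lower and 77.8% passed in either direction. The share of lower genes was thus above the background and that of higher genes below it, while the share that passed at all was close to it. Without normalization factors the calls were 12 higher and 15 lower in place of 9 and 19. The median log2 fold change was -0.24 for the cytosolic and 0.15 for the mitochondrial genes, beside 0.03 for all tested genes. Among the 9952 genes with a mean level at least that of WARS2, the synthetase gene with the lowest level, 33.2% were higher and 37.9% were lower, with a median of -0.04.

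**Figure D1:**
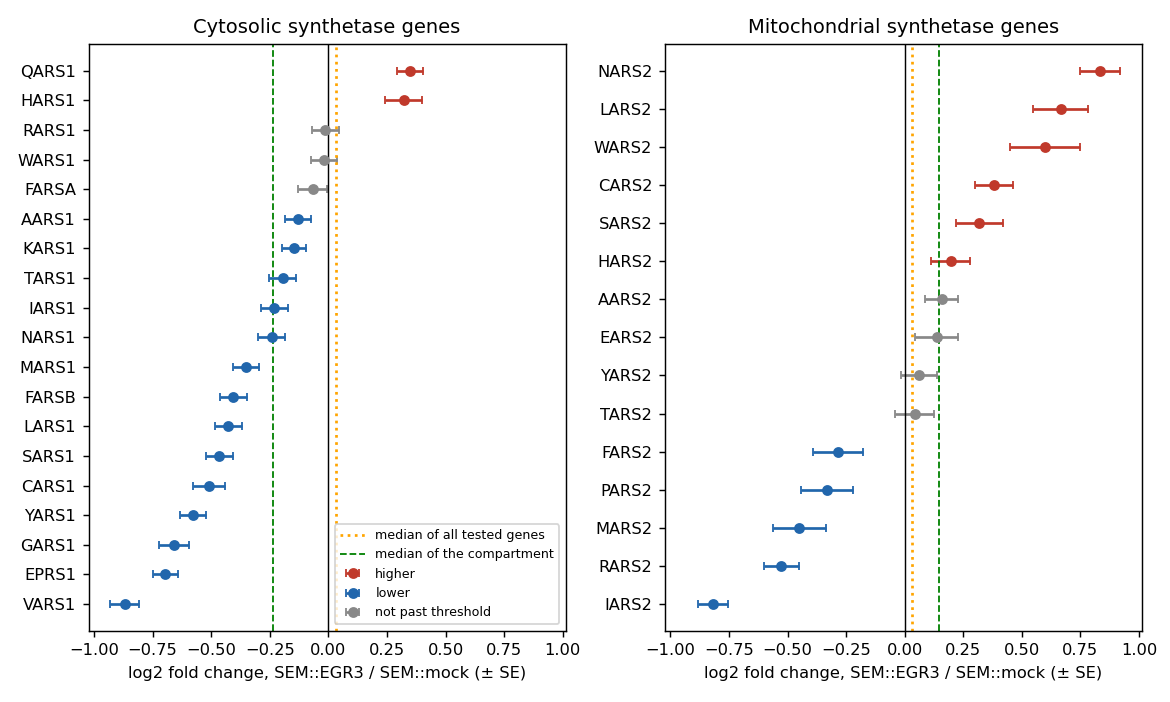
Fitted log2 fold change (x axis, SEM::EGR3 over SEM::mock, with its standard error) of cytosolic genes on the left and mitochondrial genes on the right, with red for higher, blue for lower and grey for not past an adjusted p-value of 0.05. Cytosolic genes lie from -0.87 (VARS1) to 0.35 (QARS1), most of them left of 0, whereas mitochondrial genes spread from -0.82 (IARS2) to 0.83 (NARS2).

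The summed level of the cytosolic genes was 3846, 3844 and 3869 CPM in SEM::mock and 3205, 3197 and 3203 CPM in SEM::EGR3. All 3 SEM::EGR3 libraries were lower than all 3 SEM::mock libraries, and the means were 3853 ± 13.9 and 3202 ± 4.56 CPM (SD, n = 3 each), a change of -16.9%. The mitochondrial genes summed to 543.7, 519.6 and 530.7 CPM in SEM::mock and 527.1, 541.4 and 552.8 CPM in SEM::EGR3. Here the libraries overlapped, and the means of 531 ± 12.1 and 540 ± 12.9 CPM (SD, n = 3 each) differed by less than 1 SD. The near-equal mitochondrial sum was made of genes that moved in opposite directions. With GARS1 and KARS1 added to the mitochondrial genes, the 18 genes summed to 913 ± 3.12 CPM and 844 ± 10.3 CPM (SD, n = 3 each).

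**Figure D2:**
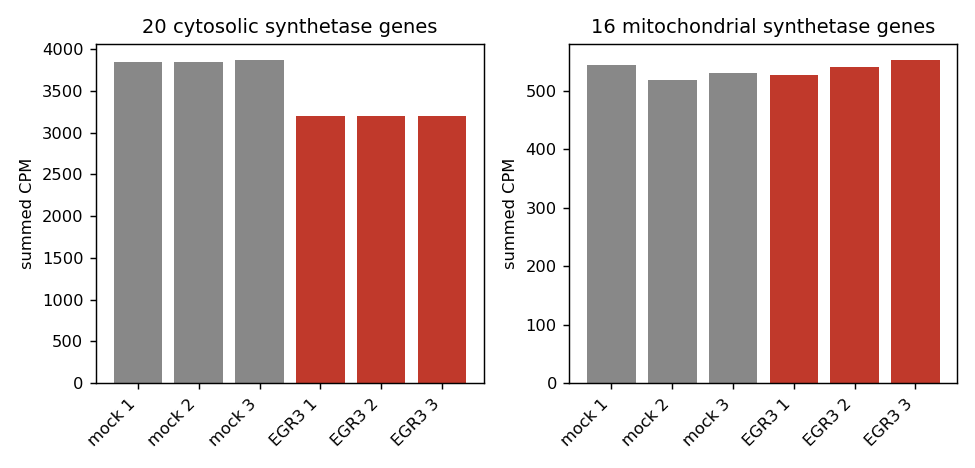
Summed level in CPM (y axis, from 0) of the 20 cytosolic and the 16 mitochondrial synthetase genes in each of the 6 libraries, grey for SEM::mock and red for SEM::EGR3. The cytosolic bars stand at 3844 to 3869 CPM in SEM::mock and at 3197 to 3205 CPM in SEM::EGR3, and the mitochondrial bars of both lines overlap.

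The libraries of the lines did not overlap for 29 of the 36 genes (80.6%), beside 70.1% of all tested genes. Among the cytosolic genes this held for 16, of which 14 were lower in SEM::EGR3. Among the mitochondrial genes it held for 13, of which 9 were higher. A log2 fold change of at least 0.5 with the adjusted p-value was reached by 4 synthetase genes that were higher (11.1%) and 7 that were lower (19.4%), beside 26.2% and 19.8% of all tested genes. The share of higher genes was thus below the background, and that of lower genes was near it. The 4 higher genes were all among the 16 mitochondrial genes, and 5 of the 7 lower genes were among the 20 cytosolic genes. Within its compartment each of these counts was near the background share, so that neither is read as a result.

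The largest fall among the cytosolic genes was that of VARS1, which charges valine (chr6:31777518-31795953, minus strand, GRCh38). VARS1 had 860, 882 and 808 counts across SEM::mock and 1289, 659 and 715 across SEM::EGR3. After scaling for depth, these were 153 ± 5.4 and 83.7 ± 4.89 CPM (SD, n = 3 each), or a log2 fold change of -0.87 (SE 0.06, adjusted p = 3.34e-12). All 3 SEM::EGR3 libraries, the deepest included, lay below all SEM::mock libraries. EPRS1, whose fused enzyme charges both glutamate and proline, had 1520, 1581 and 1422 counts across SEM::mock and 2574, 1202 and 1568 across SEM::EGR3. Its level was 271 ± 7.27 against 167 ± 5.77 CPM (SD, n = 3 each), and the log2 fold change was -0.70 (SE 0.05, adjusted p = 2.65e-11). The EPRS1 libraries did not overlap, and leaving out any 1 library left the change between -0.72 and -0.67.

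GARS1, the glycine enzyme of both compartments, had 811, 986 and 745 counts across SEM::mock and 1553, 675 and 866 across SEM::EGR3. Its log2 fold change was -0.66 (SE 0.06), from 152 ± 11.9 to 95.6 ± 4.62 CPM (SD, n = 3 each). YARS1, the tyrosine enzyme, which is also known to be secreted and cut into fragments with cytokine activity, had 1938, 2116 and 1590 counts across SEM::mock and 3434, 1629 and 2126 across SEM::EGR3. GARS1 and YARS1 were both lower in every SEM::EGR3 library than in any SEM::mock library. The change of YARS1 was -0.58 (SE 0.06), from 336 ± 22.0 to 225 ± 8.44 CPM (SD, n = 3 each). YARS1 had the highest mean level of the 36 genes. CARS1, the cysteine enzyme, had 501, 549 and 508 counts across SEM::mock and 1027, 521 and 546 across SEM::EGR3, a log2 fold change of -0.51 (SE 0.07). SARS1, the serine enzyme, had 1084, 1060 and 931 counts across SEM::mock and 1969, 1018 and 1235 across SEM::EGR3, a log2 fold change of -0.47 (SE 0.06). Neither CARS1 nor SARS1 had overlapping libraries after scaling.

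The other cytosolic genes that fell did so by smaller amounts. LARS1 (leucine) changed by -0.43, FARSB (a subunit of the phenylalanine enzyme) by -0.41 and MARS1 (methionine, which also starts every protein chain) by -0.35. NARS1 (asparagine) changed by -0.24, IARS1 (isoleucine) by -0.23 and TARS1 (threonine) by -0.20. KARS1, the lysine enzyme of both compartments, had 1274, 1350 and 1224 counts across SEM::mock and 3228, 1550 and 1872 across SEM::EGR3, with a log2 fold change of -0.15 (SE 0.05, adjusted p = 0.0167). AARS1 (alanine) changed by -0.13 (SE 0.06, adjusted p = 0.0390). The libraries of KARS1 and AARS1 did not overlap, but both calls were lost when some libraries were left out. The adjusted p-value of KARS1 was 0.0589 without SEM::mock replicate 3 and 0.0564 without SEM::EGR3 replicate 3. That of AARS1 was 0.179 without SEM::mock replicate 2 and 0.0693, 0.0935 and 0.0750 without SEM::EGR3 replicates 1, 2 and 3.

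The cytosolic genes that rose were QARS1 and HARS1. QARS1, the glutamine enzyme and a member of the multi-synthetase complex (chr3:49095932-49105135, minus strand), had a level of 123 ± 2.18 CPM in SEM::mock and 156 ± 2.17 CPM in SEM::EGR3 (SD, n = 3 each). This was a log2 fold change of 0.35 (SE 0.06, adjusted p = 4.85e-06) with no overlap of the libraries. HARS1, the histidine enzyme, had 391, 416 and 314 counts across SEM::mock and 1263, 705 and 683 across SEM::EGR3, a log2 fold change of 0.32 (SE 0.08, adjusted p = 8.47e-04). Its SEM::EGR3 libraries spread more widely than those of QARS1 (84.0 ± 9.98 CPM, SD, n = 3) and all lay above SEM::mock (66.8 ± 4.52 CPM, SD, n = 3). RARS1 (arginine, -0.01), WARS1 (tryptophan, -0.02) and FARSA (the other subunit of the phenylalanine enzyme, -0.07) did not pass the test. FARSA passed only without SEM::mock replicate 2, with a change of -0.15 (adjusted p = 0.0476). RARS1 had 598, 656 and 574 counts across SEM::mock and 1678, 800 and 986 across SEM::EGR3, or 109 ± 3.47 and 108 ± 0.612 CPM (SD, n = 3 each). The sign of RARS1, WARS1 and FARSA turned without normalization factors, and no call did.

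Among the mitochondrial genes, NARS2 rose most. It charges asparagine and lies at chr11:78435961-78574874 on the minus strand. NARS2 had 156, 140 and 135 counts across SEM::mock and 693, 359 and 410 across SEM::EGR3. All SEM::EGR3 libraries were higher after scaling (46.1 ± 1.96 against 25.8 ± 2.13 CPM, SD, n = 3 each), and the log2 fold change was 0.83 (SE 0.09, adjusted p = 5.69e-09). LARS2, the leucine enzyme, had 93, 82 and 89 counts across SEM::mock and 353, 187 and 254 across SEM::EGR3, a log2 fold change of 0.67 (SE 0.12). Neither NARS2 nor LARS2 had overlapping libraries. WARS2, the tryptophan enzyme, had 44, 54 and 43 counts across SEM::mock and 182, 91 and 133 across SEM::EGR3. The change of WARS2 was 0.60 (SE 0.15, adjusted p = 0.001), again without overlap, at 8.42 ± 0.635 and 12.9 ± 1.58 CPM (SD, n = 3 each). CARS2 (cysteine) rose by 0.38, SARS2 (serine) by 0.32 and HARS2 (histidine) by 0.20 on the log2 scale. The call of HARS2 (adjusted p = 0.0426) was lost without any 1 of SEM::mock replicates 2 and 3 and SEM::EGR3 replicates 1 and 3, where the adjusted p-value was 0.123, 0.198, 0.0657 and 0.154.

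IARS2, the isoleucine enzyme (chr1:220094102-220148041, plus strand), showed the largest mitochondrial fall. IARS2 had 553, 569 and 521 counts across SEM::mock and 845, 413 and 519 across SEM::EGR3. Its level was 98.4 ± 3.48 against 55.8 ± 1.44 CPM (SD, n = 3 each), or a log2 fold change of -0.82 (SE 0.06, adjusted p = 2.66e-11), with the lines far apart. RARS2, the arginine enzyme, had 324, 319 and 277 counts across SEM::mock and 559, 293 and 360 across SEM::EGR3, a log2 fold change of -0.53 (SE 0.08) without overlap. MARS2 (methionine) changed by -0.45 and PARS2 (proline) by -0.33. FARS2 (phenylalanine) changed by -0.28 (SE 0.11, adjusted p = 0.0222), although its libraries overlapped. Without any 1 of SEM::mock replicates 1 and 2 and SEM::EGR3 replicates 1 and 3, the adjusted p-value of FARS2 was 0.0601, 0.0569, 0.116 and 0.0629.

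AARS2 (alanine, 0.16), EARS2 (glutamate, 0.14), YARS2 (tyrosine, 0.06) and TARS2 (threonine, 0.04) did not pass the test. TARS2 had 191, 196 and 168 counts across SEM::mock and 515, 256 and 318 across SEM::EGR3, or 33.2 ± 0.502 and 34.3 ± 0.980 CPM (SD, n = 3 each), with overlapping libraries. YARS2 had 216, 229 and 192 counts across SEM::mock and 606, 288 and 373 across SEM::EGR3, or 38.1 ± 0.365 and 39.7 ± 1.33 CPM (SD, n = 3 each). The libraries of YARS2 did not overlap, yet the difference was too small to pass (adjusted p = 0.508).

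**Figure D3:**
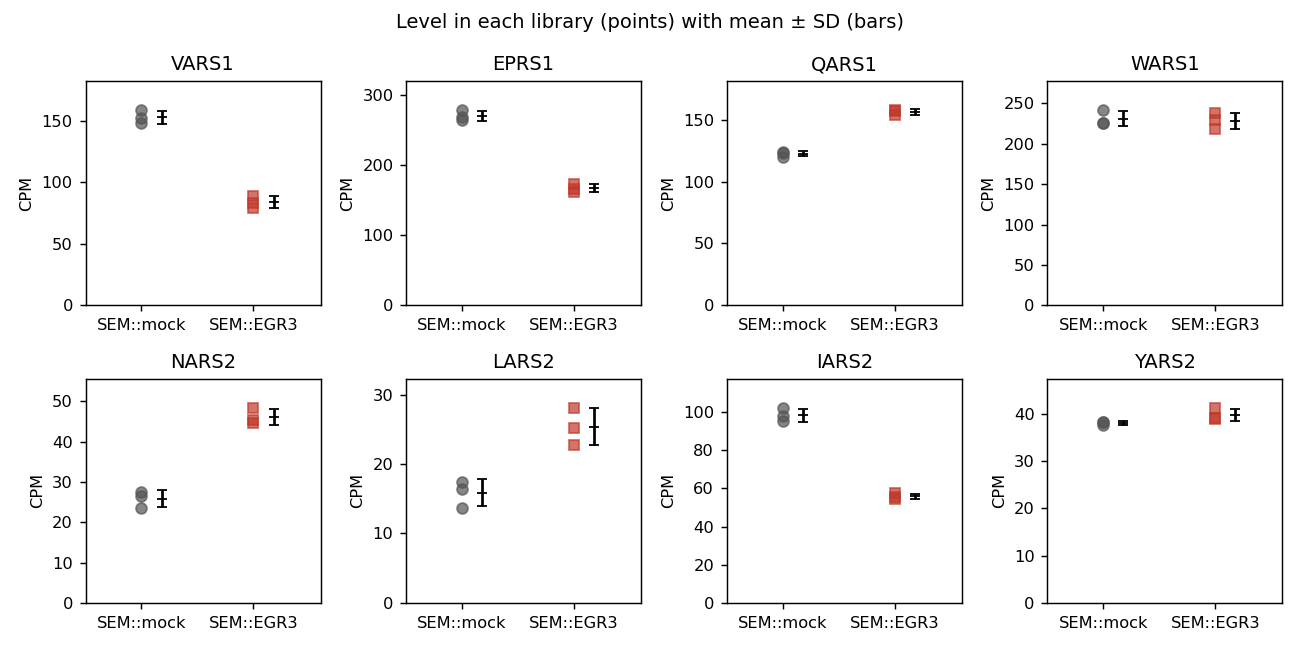
Level in CPM (y axes, from 0) of 8 synthetase genes in each library, with circles for SEM::mock, squares for SEM::EGR3 and bars for the mean ± SD of 3 libraries. VARS1, EPRS1 and IARS2 are lower and QARS1, NARS2 and LARS2 are higher in all SEM::EGR3 libraries, while WARS1 overlaps and YARS2 lies almost level.

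Where an amino acid has a gene for each compartment, the mitochondrial gene usually had the higher fold change. The pairs considered here were 16 pairs for 15 amino acids, with FARS2 set beside both FARSA and FARSB and EPRS1 beside both EARS2 and PARS2. The log2 fold change of the mitochondrial gene was above that of its cytosolic partner in 11 pairs and below it in 5, with a median difference of 0.33. These differences are a description, with no test. For leucine, asparagine, cysteine and serine the cytosolic gene fell and the mitochondrial gene rose. The difference was 1.09 for leucine (LARS1 -0.43, LARS2 0.67) and 1.07 for asparagine (NARS1 -0.24, NARS2 0.83). It was 0.89 for cysteine and 0.78 for serine. For glutamate, tyrosine, alanine and threonine the cytosolic gene fell and the mitochondrial gene did not pass, with differences of 0.83, 0.64, 0.29 and 0.24.

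For leucine, asparagine, cysteine and serine, the per-library ratios of the mitochondrial to the cytosolic gene kept apart. Such ratios overlapped between the lines for methionine, histidine and both phenylalanine pairs, and for no other pair. LARS1 had 1038, 1016 and 876 counts across SEM::mock and 2094, 903 and 1201 across SEM::EGR3. The log2 ratio of LARS2 to LARS1 was -3.48, -3.63 and -3.30 in SEM::mock and -2.57, -2.27 and -2.24 in SEM::EGR3. Every SEM::EGR3 library was thus higher in this ratio, which is free of library scaling. NARS1 had 1184, 1452 and 1151 counts across SEM::mock and 3024, 1370 and 1749 across SEM::EGR3. The log2 ratio of NARS2 to NARS1 was -2.92, -3.37 and -3.09 in SEM::mock and -2.13, -1.93 and -2.09 in SEM::EGR3. These too did not overlap. CARS2 had 254, 215 and 213 counts across SEM::mock and 815, 398 and 484 across SEM::EGR3, and SARS2 had 106, 113 and 92 counts across SEM::mock and 358, 172 and 211 across SEM::EGR3. The ratios of CARS2 to CARS1 and of SARS2 to SARS1 also did not overlap between the lines.

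For tryptophan, the mitochondrial gene rose and the cytosolic gene did not pass. WARS1, the cytosolic tryptophan enzyme and a known interferon gamma response gene, had 1279, 1351 and 1232 counts across SEM::mock and 3552, 1766 and 1974 across SEM::EGR3, or 231 ± 8.92 and 228 ± 9.88 CPM (SD, n = 3 each), with overlapping libraries. For arginine and isoleucine the order was the other way round, with differences of -0.51 and -0.59. RARS1 was level while RARS2 fell, and IARS1 fell less than IARS2. Proline, phenylalanine (FARSB), methionine and isoleucine made 4 pairs in which both genes fell. Histidine was the single pair in which both rose, with 200, 196 and 159 counts of HARS2 across SEM::mock and 584, 266 and 365 across SEM::EGR3.

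**Figure D4:**
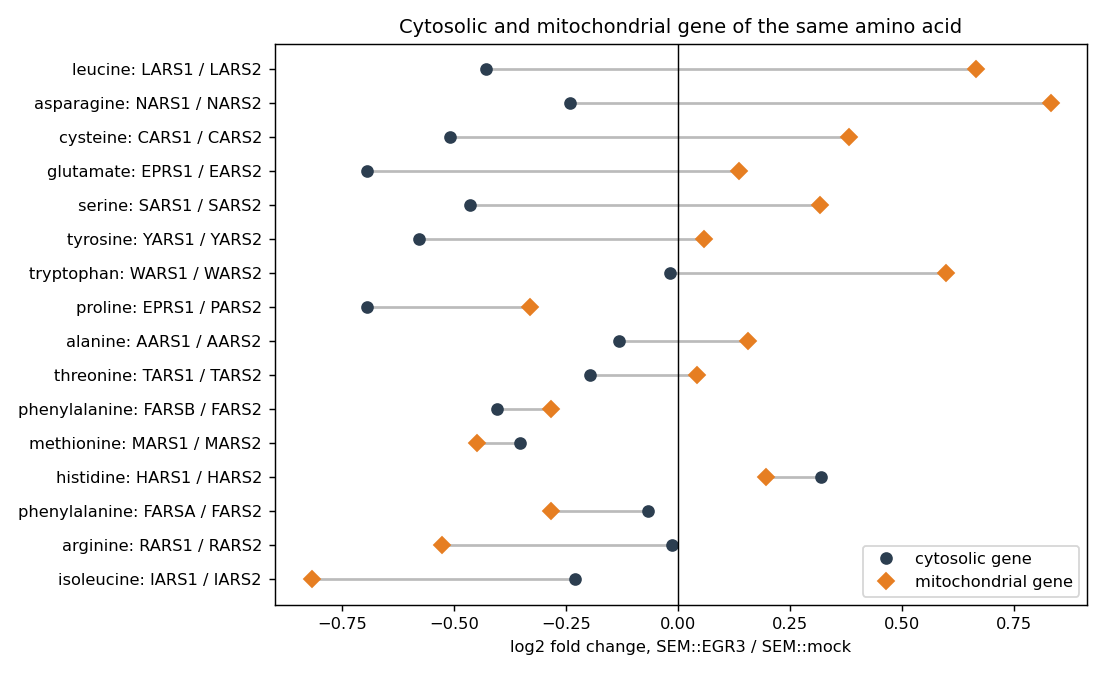
Log2 fold change (x axis, SEM::EGR3 over SEM::mock) of the cytosolic (circle) and the mitochondrial gene (diamond) of each amino acid, joined by a line and sorted by their difference. The diamond lies right of the circle in 11 of the 16 pairs, farthest for leucine (1.09) and asparagine (1.07), and left of it for isoleucine (-0.59) and arginine (-0.51).

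EPRS1 holds a glutamate part of class I and a proline part of class II and was counted in class I. Divided by structural class in this way, the cytosolic genes of class I had a median log2 fold change of -0.39 (1 higher and 7 lower of 10) and those of class II had -0.17 (1 higher and 7 lower of 10). Among the mitochondrial genes, class I had a median of 0.10 (3 higher and 3 lower of 8) and class II a median of 0.18 (4 higher and 2 lower of 8). The 8 enzymes of the multi-synthetase complex had a median of -0.19 (1 higher and 5 lower), and the 12 cytosolic enzymes outside it had a median of -0.32 (1 higher and 9 lower). Of all tested genes, 36.5% were higher and 32% were lower. No difference between these groups was tested, and the counts in groups of this size are a description only. Of the scaffolds of the complex, EEF1E1 changed by -0.58 and AIMP2 by -0.29, both past the test, while AIMP1 did not pass (-0.03).

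HARS1 and HARS2 lie head to head on chromosome 5 and are known to share a promoter region. Their RefSeq start sites (GRCh38.p14) are 85 bases apart, and 184 bases are common to both promoter windows of 300 bases (250 before and 50 after the start). The window of HARS2 is shown since this is the amino acid for which both genes rose, with the shared bases chr5:140691321-140691504 in capitals.
HARS2 promoter, chr5:140691205-140691504, plus strand: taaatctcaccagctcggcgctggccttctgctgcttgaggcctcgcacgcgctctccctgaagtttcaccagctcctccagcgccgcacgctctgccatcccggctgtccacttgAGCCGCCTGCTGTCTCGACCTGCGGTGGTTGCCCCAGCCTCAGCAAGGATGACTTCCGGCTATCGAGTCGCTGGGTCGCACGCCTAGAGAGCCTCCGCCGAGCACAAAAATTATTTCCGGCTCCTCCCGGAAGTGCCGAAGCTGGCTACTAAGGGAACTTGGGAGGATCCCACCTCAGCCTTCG
The rises of HARS1 (0.32) and HARS2 (0.20) were thus of like direction, but the HARS2 call was the less stable of the pair. At its end, HARS2 overlaps ZMAT2 on the same strand, a gene with 304% of its counts, and HARS1 overlaps WDR55 on the other strand. Without a stated strand setting or handling of overlaps, counts near these ends cannot be assigned with certainty. The same holds for MARS1, whose end meets that of DDIT3 on the other strand.

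The RefSeq promoter windows were searched on both strands for the letters of 3 kinds of element. Windows were available for 30 of the 36 genes, 16 cytosolic and 14 mitochondrial. AARS2, LARS1, VARS1 and YARS1 were among those with no entry. The C/EBP-ATF response element, the site through which ATF4 acts in amino acid shortage, was written as TGATGNAAT or TTGCATCA, which overlap at TARS1. One or the other was found in 7 of the 16 cytosolic and 0 of the 14 mitochondrial genes, while 2.00% of all 27305 genes with a window held one. The 7 genes were AARS1, CARS1, GARS1, IARS1, MARS1, NARS1 and TARS1. All 7 were lower in SEM::EGR3, beside 70% of the cytosolic genes and 32% of all tested genes. Their median was -0.24, close to that of all cytosolic genes. Of these calls, that of AARS1 was lost under 10 alternatives and that of TARS1 without normalization factors. Of the other 9 cytosolic genes with a window, 2 were higher, 4 were lower and 3 did not pass, with a median of -0.07. LARS1 (-0.43), VARS1 (-0.87) and YARS1 (-0.58), all lower, had no window and stand in neither group. The contrast of the 2 groups thus depends on which genes had a window, and it was not tested. A match of letters is a description and not a bound site, and showing these windows was chosen after the values were seen. In the sequences, read 5′ to 3′ on the strand of the gene, the matching letters are in capitals.
TARS1, chr5:33440950-33440990, plus strand: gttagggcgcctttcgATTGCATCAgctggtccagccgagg
GARS1, chr7:30594828-30594868, plus strand: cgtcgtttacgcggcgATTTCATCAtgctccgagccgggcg
IARS1, chr9:92293687-92293726, minus strand: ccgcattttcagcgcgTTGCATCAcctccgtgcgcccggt
CARS1, chr11:3057402-3057441, minus strand: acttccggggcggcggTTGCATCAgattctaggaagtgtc
MARS1, chr12:57488048-57488087, plus strand: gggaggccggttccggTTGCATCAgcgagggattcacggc
AARS1, chr16:70289670-70289709, minus strand: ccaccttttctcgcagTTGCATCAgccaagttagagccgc
NARS1, chr18:57621799-57621838, minus strand: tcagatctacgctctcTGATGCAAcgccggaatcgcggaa
The match began between base -187 (AARS1) and base 15 (NARS1), counted from 1 at the first transcribed base and backwards from -1 before it, and in the other 5 genes it lay within 34 bases of the start.

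EGR factors bind a GC-rich site, searched here as GCGTGGGCG or GCGGGGGCG. It was found in 3 of the 30 genes (CARS2, FARS2 and WARS1), beside 6.95% of all genes with a window. CARS2 rose, FARS2 fell and WARS1 did not pass. The E box CACGTG, the site of MYC and its relatives, was found in CARS2, EARS2, IARS1 and MARS2, beside 8.77% of all genes with a window. The windows of the genes with the largest rise and fall in each compartment are shown because the groups' extremes are where the lines differ most. VARS1 had no entry. None of the letters searched for were in the 3 windows, which says only that these letters are not in this stretch.
IARS2, chr1:220093882-220094181, plus strand: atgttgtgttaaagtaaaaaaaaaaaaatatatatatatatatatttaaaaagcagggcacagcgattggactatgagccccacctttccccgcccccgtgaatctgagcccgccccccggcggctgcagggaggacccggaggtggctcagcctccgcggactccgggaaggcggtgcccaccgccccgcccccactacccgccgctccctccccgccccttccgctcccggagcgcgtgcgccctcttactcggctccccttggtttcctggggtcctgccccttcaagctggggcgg
QARS1, chr3:49104708-49105007, minus strand: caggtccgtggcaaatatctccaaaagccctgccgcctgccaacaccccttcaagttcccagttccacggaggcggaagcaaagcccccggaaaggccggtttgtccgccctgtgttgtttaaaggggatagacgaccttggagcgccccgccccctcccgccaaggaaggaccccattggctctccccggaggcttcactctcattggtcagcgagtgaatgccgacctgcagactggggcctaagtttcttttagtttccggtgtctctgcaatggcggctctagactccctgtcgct
NARS2, chr11:78574815-78575114, minus strand: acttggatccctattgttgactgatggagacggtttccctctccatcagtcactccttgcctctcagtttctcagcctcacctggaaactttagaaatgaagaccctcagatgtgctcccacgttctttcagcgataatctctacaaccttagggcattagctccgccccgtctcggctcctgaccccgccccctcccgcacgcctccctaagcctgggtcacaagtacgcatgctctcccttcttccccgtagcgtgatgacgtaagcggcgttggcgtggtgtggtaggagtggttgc

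Genes that act beside the synthetases were taken as short lists. Of all tested genes, 36.5% were higher and 32% were lower, and the counts in lists of this size are not read as a result. Of the 4 makers of mitochondrial glutaminyl-tRNA and formylmethionyl-tRNA, which replace a mitochondrial glutamine enzyme and start mitochondrial chains, GATB rose by 1.12 on the log2 scale (SE 0.10), and GATC (-0.13), QRSL1 (0.01) and MTFMT did not pass. GATB had 88, 95 and 81 counts across SEM::mock and 547, 245 and 308 across SEM::EGR3, with no overlap after scaling. Of 6 proofreading genes, which clear mischarged tRNA or stalled peptidyl-tRNA, 1 rose and 2 fell, PTRH2 (-0.35) among them, while AARSD1 did not pass (-0.02). Of 6 genes for selenocysteine tRNA and its decoding, 3 rose and 2 fell. PSTK, the kinase that acts on seryl-tRNA on the way to selenocysteine, changed by -0.61, SECISBP2 changed by 0.37 and SEPSECS did not pass (-0.12). Of 14 genes for tRNA ends, introns and export, 2 rose and 5 fell. The largest changes there were those of TSEN34 (-0.89), a subunit of the splicing endonuclease, and SSB (-0.81), the La protein that binds new tRNA ends. The exporter XPOT did not pass (0.02).

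Of the elongation factors of mitochondria, 4 of 5 were tested, with 2 higher and 1 lower. GFM1, the factor for translocation, changed by 0.63, GUF1 by 0.42 and TUFM, the factor that brings charged tRNA, by -0.19, while GFM2 did not pass (-0.14). Of the cytosolic factors, 5 of 6 were tested, with 2 higher and 1 lower. EIF5A changed by -0.31 and EEF2 by 0.24, and EEF1A1, which brings charged tRNA to the cytosolic ribosome, did not pass (-0.04). Of all tested genes, 36.5% were higher and 32% were lower, and 5 tested factors are too few to be set against the cytosolic synthetases.

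Of 17 amino acid response genes, 16 were tested, and 10 rose and 3 fell, with a median log2 fold change of 0.34. ATF4 had 1669, 1594 and 1395 counts across SEM::mock and 4632, 2640 and 3039 across SEM::EGR3, a log2 fold change of 0.24 (SE 0.06, adjusted p = 0.00125). VLDLR, a lipoprotein receptor gene, had 2, 2 and 4 counts across SEM::mock and 152, 69 and 89 across SEM::EGR3, and its fitted value of 4.30 rests on those few SEM::mock counts. VLDLR is among the 10 but passed the filter on low counts only through SEM::EGR3, so that its higher call is no support. PSAT1, an enzyme of serine synthesis, changed by 1.62. EIF2AK4, the kinase that senses uncharged tRNA, did not pass (-0.02). ASNS, asparagine synthetase and a classical ATF4 target, was too low to test, at 6, 7 and 5 counts across SEM::mock and 18, 2 and 3 across SEM::EGR3. Over all tested genes, too, more were higher (36.5%) than lower (32%). Whether this list bears on the fall of most cytosolic synthetase genes was not tested. Of 9 interferon gamma response genes, 7 were tested, with 3 higher and 2 lower. GBP1, an interferon-induced GTPase, had 1, 3 and 0 counts across SEM::mock and 90, 32 and 52 across SEM::EGR3, with a fitted value of 4.41 that depends on the few SEM::mock counts. The same limit of the filter holds for the higher call of GBP1. PSMB9, a subunit of the immunoproteasome, changed by 1.16. WARS1, a member of the same response, did not pass.

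**Figure D5:**
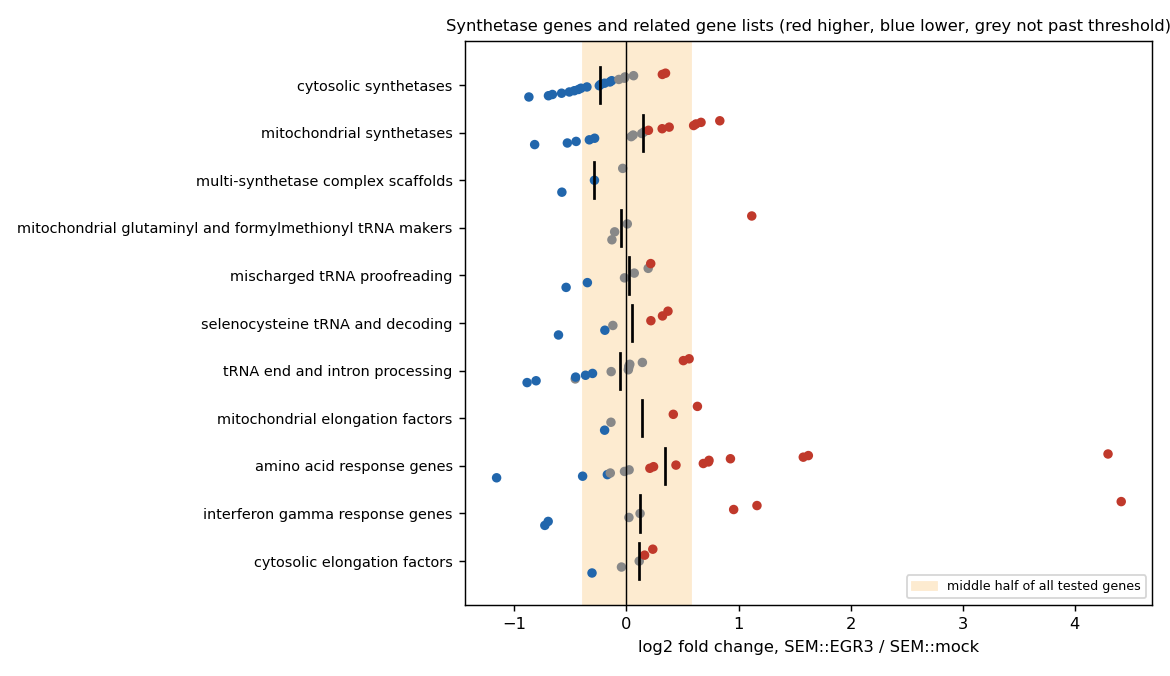
Log2 fold change (x axis, SEM::EGR3 over SEM::mock) of each tested gene in the synthetase groups and in 9 related lists, with red for higher, blue for lower, grey for not past the test, a black bar for the median and a shaded band from the lower to the upper quartile of all tested genes (-0.39 to 0.57). The cytosolic synthetases lie mostly left of 0 with a median of -0.24, and the amino acid response genes lie mostly right of it with a median of 0.34.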

How the data were processed

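RNA of SEM::mock and SEM::EGR3 was measured by MACE-Seq at a service provider, with 3 biological replicates per line. Raw whole-number counts of each gene, as deposited by the authors, were the only values tested. The authors also deposited CPM values under another name, size-factor normalized values on a signal scale, and log2 fold changes and p-values of their own comparison, none of which were used. The submitters' processing notes name bcl2fastq, Bowtie2, HTSeq and the genome build GRCh38, with versions, annotation, strand setting and use of molecular identifiers not given in the sources used here. All rows had a gene name, and 0 per-sample columns stayed without a sample. The column headings spell the induced gene ERG3 and were read as SEM::EGR3.

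The analysis used edgeR 4.0.16 under R 4.3.3. After filterByExpr (15465 of 35410 genes kept) and TMM scaling, the lines were compared with glmQLFit and glmQLFTest on the 6 libraries with no covariate, with Benjamini-Hochberg adjustment over all tested genes and a threshold of 0.05. CPM in the text are TMM-scaled counts per 1000000 counts of the tested genes. A fold change is the fitted value with its standard error. The procedure was also run on simulated counts with far fewer changed genes than were called here, so that this run does not test the calls or the scaling. Members and gene lists were chosen with earlier results of these data known, and the list directions are no independent support. Synthetase genes are named with their log2 fold change, except for some genes whose own results are left out, although sums and counts over groups include them. Pairs leave them out. Counts per library are given for the 6 largest passing changes in each compartment, the 3 smallest changes, amino acids with opposite calls, and a few genes with known special features. Of each other list, the 2 largest changes and the smallest are named, where reported, and a few more (ATF4, ASNS, MTFMT and TUFM) were named after their values were seen. ELANE and EEF1G were not analysed here. Replicates differed by more than counting noise, with a chi-square per degree of freedom of 1.71 to 3.12 between libraries of a line, so no library was counted as a repeat of another. Member positions are from GENCODE release 29 (GRCh38), and promoter windows from RefSeq (GRCh38.p14).

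The alternatives were DESeq2 1.42.0, DESeq2 size factors or upper-quartile factors in edgeR, no normalization factors, no filter beyond 1 count, a minimum of 10 counts in each library, a block for the replicate number, leaving out each library, and a minimum absolute log2 fold change of 0.5.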

Additional observations from a re-analysis of the deposited data

How the results depend on the processing

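Of the values of single genes under alternatives, 399 kept their direction and side of the threshold, 31 lost the call, 5 gained one and 7 turned sign, none of these 7 past the threshold. The median of the cytosolic genes was -0.16 without normalization factors and -0.19 with at least 10 counts in every library, and that of the mitochondrial genes 0.22 and 0.20. The median of all tested genes moved from 0.03 to 0.11 without normalization factors. Under DESeq2's Wald test 3 mitochondrial genes were lower. With the added minimum of 0.5 on the absolute log2 fold change, 4 synthetase genes were higher and 7 lower.

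RARS1 turned to 0.0022 with upper-quartile factors, 0.065 without normalization factors and 0.038 with at least 10 counts, and WARS1 to 0.059 and 0.033 under the latter 2 settings. FARSA turned to 0.0096 without normalization factors. Without SEM::EGR3 replicate 3 WARS1 was 0.015. The cause was not tested.

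Leaving out 1 library gave medians of -0.28 to -0.22 for the cytosolic and 0.10 to 0.16 for the mitochondrial genes, with 0.10 without SEM::mock replicate 1. It gave 8 to 9 synthetase genes higher and 16 to 18 lower, with 12 to 14 lower cytosolic genes. For WARS1 it gave -0.052 to 0.015. The calls of AARS1, HARS2, FARS2 and KARS1 were lost under 10, 7, 7 and 5 alternatives. PARS2 lost its call under DESeq2 and TARS1 without normalization factors. AARS2 gained one under 3 alternatives, EARS2 without normalization factors, and FARSA without SEM::mock replicate 2.

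With the replicate number as a block, 8 synthetase genes were higher and 17 lower (2 and 12 cytosolic, 6 and 5 mitochondrial), beside 5388 and 4693 of all tested genes. Same-numbered libraries had correlations of deviations of -0.093, -0.0535 and -0.0308, and no library correlated best with its own number. With 3 libraries per line, these values cannot show whether same-numbered libraries shared a batch. WARS2, the gene with the lowest level, had a standard error of 0.15 and kept its call under the alternatives run.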

Other observations

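TARS3, a second cytosolic threonine gene whose symbol the rule did not match, had 58, 59 and 64 counts across SEM::mock and 120, 44 and 79 across SEM::EGR3, a log2 fold change of -0.52 (SE 0.16, edgeR adjusted p = 0.00742) without overlap of the libraries. KARS1P1, a pseudogene of KARS1, had 3 to 5 counts per SEM::mock library and 7 to 15 counts per SEM::EGR3 library, against 1224 to 3228 counts of KARS1. GARS1-DT, a transcript on the other strand beside GARS1, had 90, 102 and 96 counts across SEM::mock and 305, 119 and 129 across SEM::EGR3, a log2 fold change of -0.01 (SE 0.13) with overlapping libraries, while GARS1 itself changed by -0.66. WARS2-AS1, on the other strand of WARS2, had 13, 4 and 5 counts across SEM::mock and 37, 30 and 37 across SEM::EGR3, a log2 fold change of 1.32 (SE 0.37, edgeR adjusted p = 0.00271). Without a stated strand setting, reads of WARS2 and WARS2-AS1 cannot be told apart where they overlap. These genes were chosen after their values were seen.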
